A study of Homo sapiens with 2 samples.

Results

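The 5 genes with the highest mERG peak scores in VCaP cells were CDKAL1, RTN3, NBN, ATL3 and KANSL1. They were chosen by the highest score of any peak named for a gene and were 5 of the 5011 genes named in the list of mERG peaks. Together they named 95 of its 18070 peaks. VCaP cells come from a prostate cancer with a TMPRSS2-ERG fusion, and their chromatin was immunoprecipitated with an antibody against methylated ERG (mERG). The series held 1 mERG ChIP library and 1 control library, whose title names input and whose antibody label names IgG, so that the kind of control cannot be told apart. Peaks were deposited as 1 list on the hg19 assembly (GRCh37), with a position, a score, an annotation and the gene of the nearest transcription start for each peak. No value had a replicate, the read depth of both libraries was unknown from the list, and every comparison between peaks is given as a description without a test.

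ERG is a transcription factor of the ETS family, whose members bind DNA at a GGAA centre, and the fusion places it under an androgen-driven promoter in many prostate cancers. EZH2, the catalytic subunit of the Polycomb repressive complex PRC2, can methylate ERG at a lysine in its DNA-binding domain, and the antibody was raised against that form. The 5 genes have several roles: RTN3 and ATL3 encode proteins that shape the endoplasmic reticulum, NBN encodes a subunit of the complex that senses DNA breaks, KANSL1 encodes a subunit of a histone acetyltransferase complex, and CDKAL1 encodes an enzyme that modifies transfer RNA.

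The score was the authors' own value for each peak, a number without a unit that the header of the list does not define, and the strongest peak of a gene means here the peak with its highest score. Over the whole list it had a median of 40.9 and a highest value of 592. The strongest peak named for CDKAL1 scored 592, that for RTN3 scored 586, that for NBN scored 523, that for ATL3 scored 485 and that for KANSL1 scored 469. These were also the 5 strongest peaks of the list. The first gene outside the selection was KDM2A, a histone demethylase gene, at 465, so that the last member and the first gene left out lay close together. TACC1 followed at 395, KMT5B at 343, CSNK2A1 at 340.5 and ARHGEF7 at 317. Since the members were selected on this score, its height in them is a property of the selection.

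The members' peaks were wide as well as strong. Of the 95 peaks, 36 scored 100 or more, against 403 peaks (2.23%) in the whole list, and 61 were 1 kb or wider, against 1043 (5.77%) in the whole list. Both shares follow from the selection in part, because width and score moved together: Pearson's r of their logarithms was 0.672 over the 18070 peaks of the list and 0.739 over the 95, which share 1 library and neighbouring positions. The 95 peaks held 0.526% of the peaks of the list and 2.49% of its covered bases, 228 of 9167 kb.

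Many of these peaks abutted each other. Of 89 pairs of neighbouring peaks named for the same member, 52 were separated by at most 200 bp, with a median gap of 136 bp. In the whole list, 1196 of 18031 neighbouring pairs (6.63%) lay that close, with a median gap of 7868 bp. These pairs include neighbours named for different genes, which the members' pairs leave out, so that the values are not like for like. KANSL1 supplied 58 of the 89 pairs and 36 of the 52. By gene the median gap was 19 bp in RTN3, 37 bp in ATL3, 129.5 bp in KANSL1, 343.5 bp in CDKAL1 and 680 bp in NBN, where none of 7 gaps was that short. The score of a single peak therefore described a piece of a longer covered stretch in RTN3, ATL3 and parts of CDKAL1 and KANSL1.

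By annotation, 90 of the 95 peaks lay in introns (94.7%, against 87.6% in the list), 3 in exons, 1 in a 3′ untranslated region and 1 at a transcript end. KANSL1 supplied 59 of the 90. The intronic share was 98.3% in KANSL1, 100% in ATL3 and in NBN, 82.35% in CDKAL1 and 75% in RTN3. None lay in a promoter, a class with 50 peaks in the whole list. A repeat element was annotated at the centre of 36 peaks (37.9%, against 42.4% in the list), of which 20 were SINEs and 9 were LINEs. SINEs made up 21.1% of the members' peaks and 14.2% of all peaks, and LINEs 9.47% and 18.0%. The 60 KANSL1 peaks carry these shares, with 23.3% SINEs and 5.0% LINEs. The other genes have few peaks each, with 17.7% SINEs and 29.4% LINEs in CDKAL1, 25% and 0% in RTN3, 16.7% and 16.7% in ATL3, and 12.5% and 0% in NBN.

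The sequence at the middle of 3 of the strongest peaks is shown as an example. The middle is the midpoint of the called peak, and whether a binding site lies there was not tested. The central 300 bases are printed on the plus strand of hg19, in lower case, with every GGAA or its reverse complement TTCC in capitals. The CDKAL1 window is chr6:20481292-20481591 and holds 155 coding bases of E2F3, the RTN3 window is chr11:63457931-63458230 in intron 1, and the KANSL1 window is chr17:44251019-44251318 in intron 2. No window is shown for ATL3 and NBN.
CDKAL1: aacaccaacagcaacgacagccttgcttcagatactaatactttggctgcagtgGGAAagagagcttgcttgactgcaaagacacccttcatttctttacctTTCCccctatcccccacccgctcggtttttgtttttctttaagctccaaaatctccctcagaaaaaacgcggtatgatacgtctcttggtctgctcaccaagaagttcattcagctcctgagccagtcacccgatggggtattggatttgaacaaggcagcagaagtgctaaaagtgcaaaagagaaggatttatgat
RTN3: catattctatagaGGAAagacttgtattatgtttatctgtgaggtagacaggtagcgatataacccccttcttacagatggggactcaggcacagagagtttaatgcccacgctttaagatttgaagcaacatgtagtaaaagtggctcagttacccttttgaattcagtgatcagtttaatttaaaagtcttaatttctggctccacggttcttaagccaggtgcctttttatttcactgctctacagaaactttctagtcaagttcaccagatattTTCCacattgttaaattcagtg
KANSL1: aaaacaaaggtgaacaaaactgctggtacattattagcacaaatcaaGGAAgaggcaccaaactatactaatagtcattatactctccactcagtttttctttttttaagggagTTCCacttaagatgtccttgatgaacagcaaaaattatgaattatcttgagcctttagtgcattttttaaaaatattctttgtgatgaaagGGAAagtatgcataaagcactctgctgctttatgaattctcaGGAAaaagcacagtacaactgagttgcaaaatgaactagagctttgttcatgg

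GGAA on either strand occurred 2 times in the CDKAL1 window, 2 times in the RTN3 window and 4 times in the KANSL1 window. It occurred 3 times each in the same windows of ATL3 and NBN, which are not shown. The central 300 bases of 92.5% of all peaks held GGAA, with a median of 3. The longer ETS core CCGGAAGT, which contains GGAA, was searched on both strands and was found 0 times in the 5 whole peaks and 0 times in the 5 kb on each side of them. It was found in the central 300 bases of 13 of 18037 peaks (0.072%). Other whole peaks were not searched for it, so that these values are not like for like. Counted over whole peaks, GGAA occurred 10.3 times per kb in the strongest CDKAL1 peak and 10.2 times per kb in the 5 kb on each side of it. The corresponding counts were 6.22 and 9.20 per kb for RTN3, 6.74 and 5.50 for ATL3, 8.74 and 9.0 for NBN, and 9.46 and 10.1 for KANSL1, and all peaks together held 9.81 per kb. The central 1 kb of the strongest peak held GGAA 10 times in CDKAL1, 11 in RTN3, 5 in ATL3, 7 in NBN and 12 in KANSL1, so that only for NBN did the whole peak and its central 1 kb lie on the same side of the flanks. Their GC content was 42.4% in CDKAL1, 42.7% in RTN3, 42.1% in ATL3, 37.8% in NBN and 39.3% in KANSL1, against 39.3% over all peaks. None of the 5 strongest peaks had another copy in the genome, defined as an alignment of 500 bases or more at 95% identity or more.

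RTN3 and ATL3, which lie head to head on chromosome 11, were covered almost from their first kilobases inwards. RTN3 encodes a reticulon, a hairpin protein that bends the membrane of endoplasmic reticulum tubules, and ATL3 encodes an atlastin, a GTPase that fuses those tubules. The 4 RTN3 peaks formed 1 stretch of 40.3 kb, chr11:63451806-63492128, of which 99.8% lay inside peaks. It was the longest stretch of the list when peaks at most 200 bp apart were joined, among 16874 stretches with a median of 400 bp. The 6 ATL3 peaks formed the next longest, 29.6 kb at chr11:63406849-63436460, of which 99.4% lay inside peaks.

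Within RTN3 the strongest peak came first along the gene. It was 12549 bp wide (chr11:63451806-63464354), scored 586 and lay in intron 1, centred 9158 bp downstream of the annotated start. After a gap of 19 bp came a peak of 6706 bp (chr11:63464374-63471079) that scored 378, also in intron 1. After 64 bp came the widest peak of the whole list, 13207 bp (chr11:63471144-63484350), which scored 167 and was centred in intron 2. After 3 bp the stretch closed with a peak of 7775 bp (chr11:63484354-63492128) that scored 259 and was centred on exon 3. The score thus did not follow the width in this gene, since the widest of its 4 peaks had the lowest score.

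ATL3, transcribed in the opposite direction, had its strongest peak centred in intron 1 as well, but this peak also held 359 coding bases of 2 ATL3 exons. That peak was 6677 bp wide (chr11:63425515-63432191), scored 485 and was centred 10349 bp downstream of the start. The peak between it and the start was 4227 bp wide (chr11:63432234-63436460), lay in the same intron and scored 123. Further into the gene, intron 3 held a peak of 1858 bp (chr11:63423651-63425508) with a score of 58.9 and a peak of 1846 bp (chr11:63421727-63423572) with a score of 41.5. Intron 5 held the centre of a peak of 6533 bp (chr11:63415192-63421724) that scored 103, and intron 7 that of a peak of 8306 bp (chr11:63406849-63415154) that scored 91.2. The gaps between the 6 peaks were 2 to 78 bp, so that covered sequence ran nearly unbroken from intron 1 to intron 7, while the 5 peaks beside the strongest scored 41.5 to 123.

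The starts of both genes lay outside the peaks. In the gene models of GENCODE the starts of ATL3 and RTN3 are 9.52 kb apart, and both fell in an interval of 15.3 kb without a peak (chr11:63436461-63451805). The first covered base lay 2.93 kb inside ATL3 and 2.89 kb inside RTN3.

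Around the strongest RTN3 peak, 18 peaks were centred within 500 kb, and the same 18 lay within 500 kb of the strongest ATL3 peak. Only 10 of them were named for these genes. C11orf95 named 3 peaks that were centred inside RTN3, with scores of 99.6, 142 and 51.3. HRASLS2 named 2 peaks, 4397 bp with a score of 259.8 and 6532 bp with a score of 163, and PLA2G16 named 1 peak of 5097 bp with a score of 41.6. All 3 of these peaks were centred in the body of PLAAT3, a phospholipase gene and the current name of PLA2G16, of which 36.7% was covered. MARK2, a kinase gene, named 2 peaks in its intron 1, of 13089 bp with a score of 181 and of 6816 bp with a score of 58.3. All 18 peaks were 1 kb or wider, 11 scored 100 or more, and together they covered 119 kb, 11.9% of the 1 Mb window.

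The chromosome 11 peaks formed a bounded block. Joined where centres lay at most 100 kb apart, they made a run of 308 kb (chr11:63341696-63649430) with 38.7% of its bases in peaks and 6 named genes. The nearest peak before the run was 3792 kb away and the nearest after it 984 kb away. The count was therefore 18 peaks within 250 kb, 500 kb and 1 Mb alike. Within 5 Mb it rose to 184 peaks, 18.4 per Mb, against 5.83 per Mb in the genome.

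**Figure D1:**
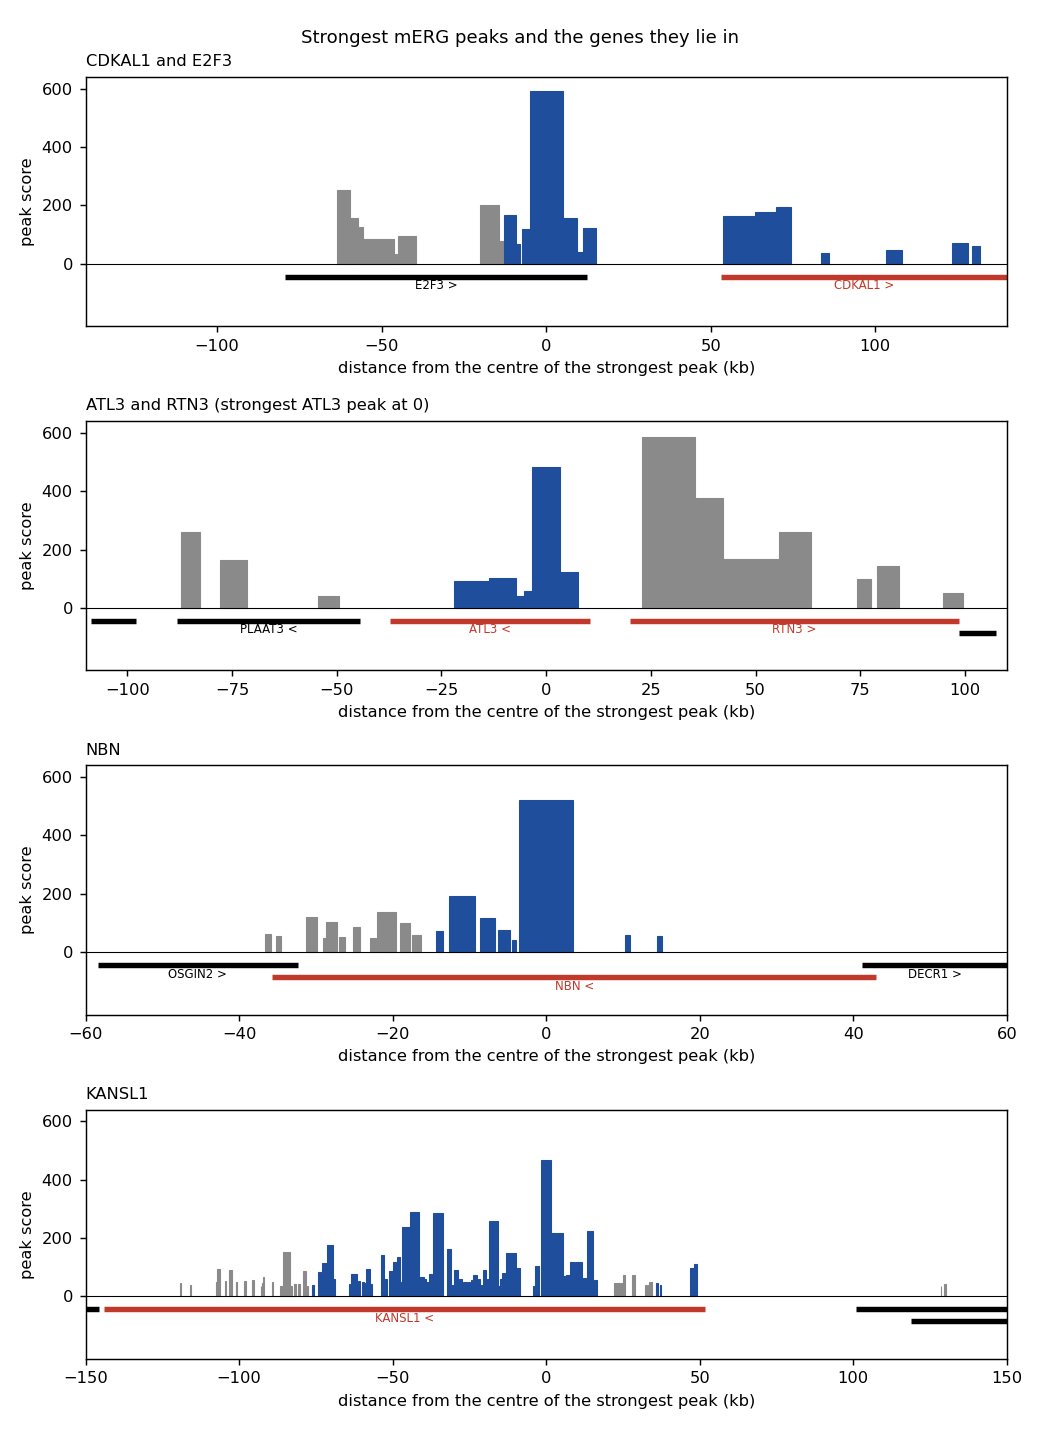
Score (no unit) and extent of the peaks at the 5 genes, by distance in kb from the centre of the strongest peak, with RTN3 and ATL3 in 1 panel. Bars as wide as the peaks are blue for the panel's gene (ATL3 in the shared panel) and grey for others, lines below 0 are gene bodies (red for the 5 genes, > or < for direction), and the bars of RTN3 and ATL3 abut over 40.3 and 29.6 kb while those of NBN and many of those of KANSL1 stand apart.

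NBN, which encodes nibrin, the subunit of the MRE11-RAD50-NBN complex that brings ATM to DNA breaks, had a strongest peak that stood apart from its neighbours. This peak was 7096 bp wide (chr8:90968907-90976002), scored 523 and was centred in intron 8, 24445 bp downstream of the start that the list used. No other peak lay within 200 bp of it, and it formed a stretch of its own, the 32nd longest of the list. The nearest peak was 374 bp away, and joined at up to 1 kb it became part of a stretch of 17.9 kb with 6 NBN peaks. It held 20.3% of all covered bases within 500 kb, against 10.5% for the strongest RTN3 peak, 9.56% for that of CDKAL1, 5.61% for that of ATL3 and 3.17% for that of KANSL1.

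The other 7 NBN peaks were weaker and narrower. Downstream of the strongest peak, that is towards the end of the gene, intron 9 held a peak of 577 bp (chr8:90967956-90968532) that scored 42.4, and intron 10 a peak of 1510 bp (chr8:90966189-90967698) that scored 75.2. Intron 11 held a peak of 1843 bp (chr8:90963893-90965735) with a score of 118 and the second strongest, of 3428 bp (chr8:90959785-90963212), with a score of 194. Intron 12 held a peak of 892 bp (chr8:90958086-90958977) with a score of 72.2. The side towards the start was sparser, with a peak of 724 bp in intron 6 (chr8:90982712-90983435) that scored 58.6 and a peak of 653 bp in intron 5 (chr8:90986939-90987591) that scored 55.3. Over the 8 peaks width and score rose together (r = 0.978 on log scales, n = 8), and the gaps between neighbours were 257 to 6709 bp.

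Covered sequence continued to the end of NBN under the name of its neighbour OSGIN2. Of 18 peaks centred in the body of NBN, 8 were named for NBN and 10 for OSGIN2, whose start was nearer. The strongest of those 10 was 2544 bp wide (chr8:90950364-90952907), was centred in intron 14 and scored 137, and others scored 120.3 (chr8:90941125-90942632) and 104 (chr8:90943814-90945242), both intergenic by the annotation of the list. With these included, 35.8% of the NBN body was inside peaks. At the other end of the gene no base of the first 27.9 kb was covered, counted from the start in GENCODE, which lies upstream of the start used by the list.

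Signal at NBN stopped inside the gene on the side of its start and was thin past its end. The run of peaks around it spanned 51.7 kb (chr8:90935849-90987591) with 19 peaks named for OSGIN2 or NBN. After the last NBN peak no peak was listed for 3744 kb, an interval that includes the whole of DECR1, the gene next to NBN. At the other end of the run, just past the end of NBN, the next peak came after 128 kb, the nearest of 11 peaks named for RIPK2, which scored at most 85.4 and were at most 887 bp wide. Within 500 kb there were 30 peaks, which covered 35.0 kb or 3.50% of the window, the smallest covered share of the 5 loci.

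KANSL1, which encodes a scaffold subunit of the NSL complex that acetylates histone H4, carried many peaks of moderate width. It named 60 peaks on chromosome 17, between chr17:44175052 and chr17:44300230, with a median width of 1012.5 bp and a median score of 72.3. Of these, 31 were 1 kb or wider and 18 scored 100 or more. All but 1 of the 60 were annotated to intron 2 of a KANSL1 transcript, a label that stands for different introns in different transcripts. The strongest was 3067 bp wide (chr17:44249635-44252701), scored 469 and was centred in intron 2, 51.6 kb downstream of the start in GENCODE. The list gives 18998 bp for the same peak, because it measures from a start inside the gene.

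The high scores in KANSL1 were spread along the gene, from chr17:44178166 to chr17:44300230, in place of 1 site. After the strongest, the peaks at chr17:44206972-44209855 (2884 bp) and chr17:44214156-44217592 (3437 bp) scored 290.4 and 284. Those at chr17:44232615-44235537 (2923 bp) and chr17:44204294-44206958 (2665 bp) scored 258 and 238. Nearer to the start, those at chr17:44264327-44266361 (2035 bp) and chr17:44252816-44256596 (3781 bp) scored 224 and 216. The peaks scoring 290.4, 284, 258 and 238 lay in intron 2 of a KANSL1 transcript with 14 introns. Those scoring 224 and 216 lay, like the strongest peak, in intron 2 of a transcript with 15 introns. By position these are different introns, with the peak centred on exon 3 (chr17:44247666-44248822) between them. None of these 6 peaks reached the width of the strongest peaks of RTN3, ATL3, NBN or CDKAL1.

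The remaining strong peaks of KANSL1 scored between 102.5 and 175. They were chr17:44179889-44181800 at 175, chr17:44218865-44220333 at 163, chr17:44238102-44241283 at 147 and chr17:44197224-44198465 at 140.4. Lower still were chr17:44202562-44203588 at 135, chr17:44201392-44202366 at 119, chr17:44260392-44262884 at 117, chr17:44258986-44260250 at 116 and chr17:44178166-44179774 at 113. The last were chr17:44299326-44300230 at 111, the peak nearest to the start in GENCODE, and chr17:44247666-44248822 at 102.5, centred on exon 3. The other 42 peaks scored 33.5 to 98.2, with a median of 58.3, and were 386 to 1403 bp wide.

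These 60 peaks fell into 24 stretches when peaks at most 200 bp apart were joined. The longest was 14.4 kb with 7 peaks (chr17:44249635-44264000), the 8th longest of the list, and contained the strongest peak. Stretches of 11.8 kb with 8 peaks and 10.8 kb with 7 peaks followed, and 10 of the 24 consisted of 1 peak. The gene thus carried many close, separately called peaks, unlike the few wide peaks in RTN3 and ATL3. Of the 60 peaks, 2 had another copy in the genome, both near the start of the gene (chr17:44298148-44299317 and chr17:44299326-44300230).

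More peaks lay in the body of KANSL1 than carried its name. Of 87 peaks centred in it, 60 were named for KANSL1, 20 for STH and 7 for KANSL1-AS1, an antisense transcript. The STH peaks lay towards the end of the gene, of which the last 24.6 kb had no peak, and scored 33.2 to 151, the strongest at chr17:44165508-44167732 (2225 bp) in intron 3. The KANSL1-AS1 peaks scored 36.6 to 73.5 and lay in or beside intron 2 of KANSL1. Together the 87 peaks covered 47.0% of the 195 kb of the gene. The first 2.52 kb of the gene were not covered, and no base was covered in the 50 kb upstream of its start or in the 50 kb past its end.

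Outside the gene body the same window held 13 peaks, all weak. MAPT, the gene next to KANSL1, held 1 peak, which scored 38.9 and covered 0.312% of it. On the other side LRRC37A named 2 peaks, NSFP1 named 2 and LRRC37A2 named 8, the strongest at 73.9. The run around KANSL1 was 328 kb long with 90 peaks, since peaks of LRRC37A and NSFP1 joined it, and peaks followed after 107 kb. With 100 peaks within 500 kb the window had 17.2 times the peak density of the genome. Chromosome 17 had an average of 15.3 peaks per Mb, and against that value the window had 6.55 times the density.

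CDKAL1, which encodes a methylthiotransferase that acts on the transfer RNA base next to the anticodon, was named for a peak that lies in another gene. Its strongest peak was 10070 bp wide (chr6:20476407-20486476), scored 592, the highest value of the list, and was annotated to exon 3 of E2F3, which encodes a transcription factor of the cell cycle. It held 491 coding bases of 3 E2F3 exons. The start of CDKAL1 lies 53.2 kb from its centre and that of E2F3 79.3 kb, and the list names each peak for the nearest start. By position the strongest mERG peak of VCaP cells thus lay in E2F3.

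In all, 7 of the 17 peaks named for CDKAL1 lay outside its body, 6 of them centred in E2F3. Before the strongest peak, intron 1 of E2F3 held peaks of 3420 bp (chr6:20468772-20472191) with a score of 168, of 1257 bp (chr6:20472314-20473570) with a score of 66.2 and of 2274 bp (chr6:20474106-20476379) with a score of 119. After it came a peak of 4232 bp in intron 6 (chr6:20486578-20490809) that scored 155, a peak of 1890 bp (chr6:20490842-20492731) over the 3′ untranslated region that scored 39.4, and a peak of 3753 bp across the transcript end (chr6:20492775-20496527) that scored 121. The strongest peak and 4 of these formed a stretch of 22.4 kb (chr6:20474106-20496527), the 3rd longest of the list. The peak of 1890 bp had another copy, on chromosome 17, and was the only such peak among the 17.

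E2F3 itself named 8 peaks, all in intron 1. The first, 4074 bp wide (chr6:20417826-20421899), scored 252 and was followed by peaks of 2306 bp with a score of 158, 1272 bp with a score of 125, 9206 bp with a score of 82.9, 1126 bp with a score of 34.7 and 5653 bp with a score of 95.6. Further along, peaks of 5773 bp (chr6:20461234-20467006) and 1608 bp scored 199.8 and 79.1. Of the E2F3 body, 60.3% was inside peaks, with 14 peaks centred in it, and its first 15.7 kb were not covered. Only RTN3, ELL2 and ATL3 had a higher covered share among protein-coding genes of 10 kb or more.

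The other 10 CDKAL1 peaks lay in its own introns and thinned out with distance from its start. The first 3 abutted in a stretch of 20.9 kb (chr6:20535130-20555992), the 4th longest of the list. They were 9545 bp wide in intron 2 (chr6:20535130-20544674) with a score of 164, 6323 bp in intron 3 (chr6:20544827-20551149) with a score of 177, and 4805 bp in intron 4 (chr6:20551188-20555992) with a score of 196. The first covered base was 0.44 kb from the start of the gene. Between this stretch and the last peak over E2F3 lay 38.6 kb without a peak (chr6:20496528-20535129), so that 2 blocks stood side by side.

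Deeper in CDKAL1 the peaks scored low, and most were still wide. Intron 4 held peaks of 2599 bp (chr6:20564814-20567412), 4706 bp (chr6:20584795-20589500), 5015 bp (chr6:20604634-20609648) and 2244 bp (chr6:20610981-20613224), with scores of 37.7, 47.1, 72.04 and 59.7. Intron 6 held peaks of 3056 bp (chr6:20751115-20754170) and 2852 bp (chr6:20754267-20757118) with scores of 37.7 and 60.2. Intron 9 held the last peak with its name, 183 bp (chr6:20909031-20909213), with a score of 35.3, and 2 weak peaks named for another transcript lay further in, up to 574 kb from the start. The gene is 698 kb long, and 6.01% of it was inside peaks, most of them in introns 2 to 4.

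Within 500 kb of the strongest peak on chromosome 6 there were 27 peaks, 17 named for CDKAL1, 8 for E2F3 and 2 for MBOAT1, which scored 37.01 and 43.1. They covered 105 kb or 10.5% of the window, and 26 of them were 1 kb or wider. The run of peaks was 195 kb long (chr6:20417826-20613224) with 22 peaks and 47.7% of its bases covered, and gaps of 207 kb and 138 kb set it apart. The density fell from 180 peaks per Mb within 25 kb to 27.0 within 500 kb and 4.10 within 5 Mb. The last value was below the 5.83 of the genome and above the 3.64 of chromosome 6.

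**Figure D2:**
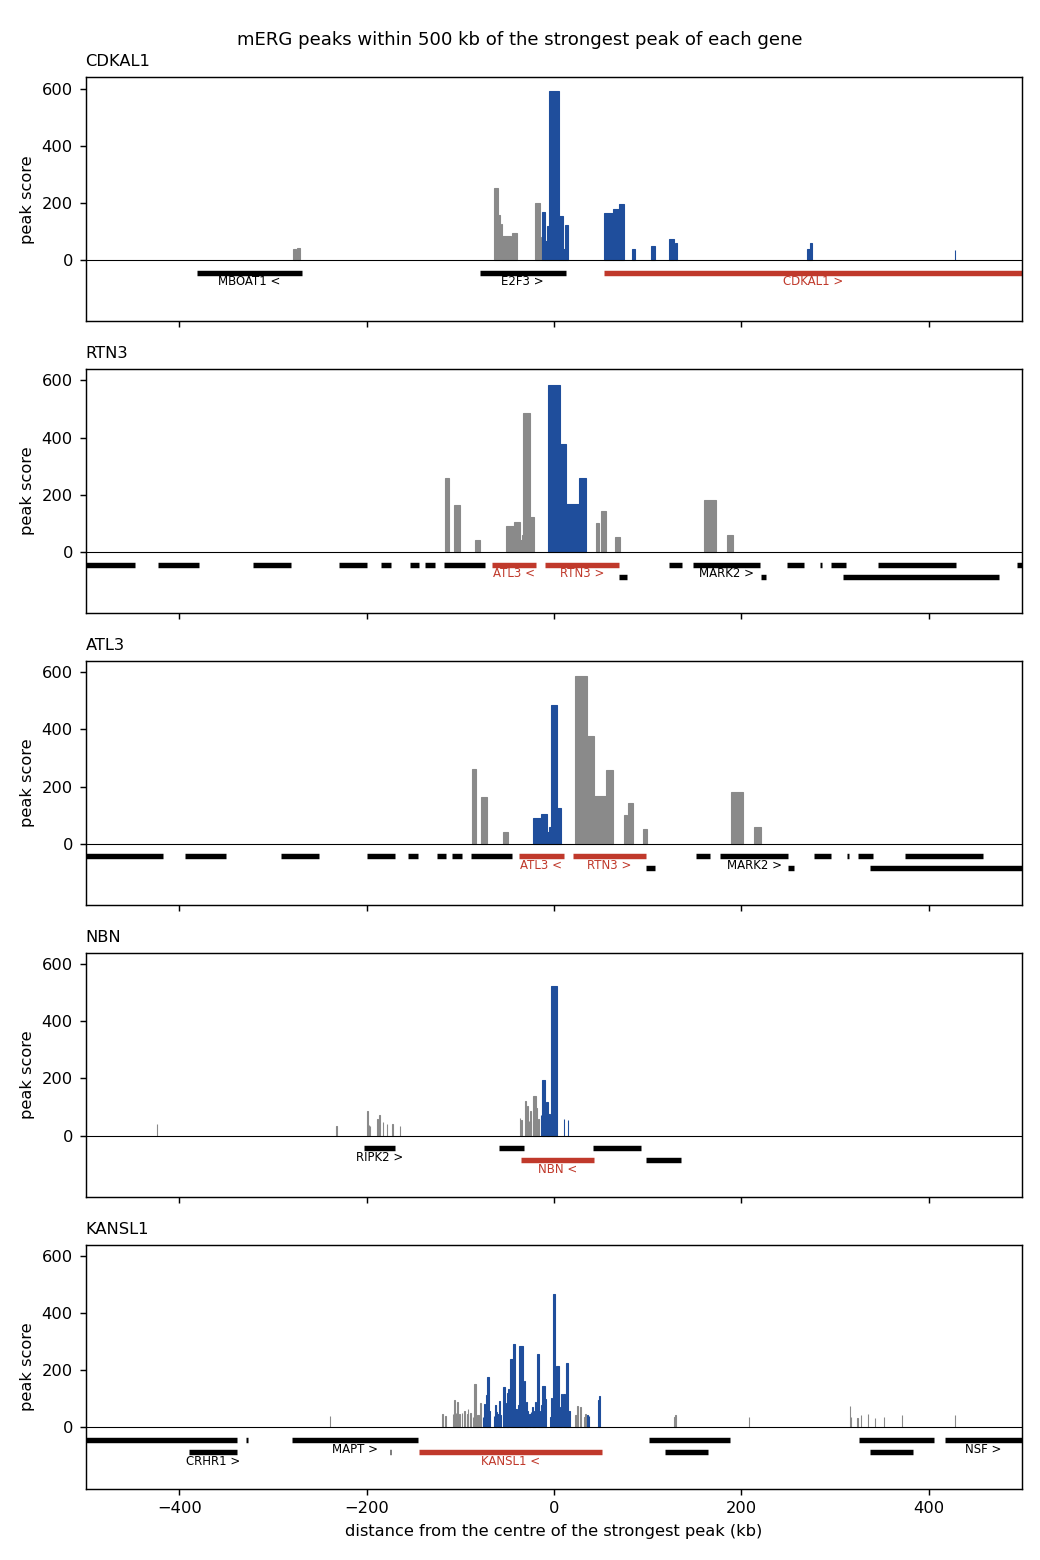
Score (no unit) and extent of all peaks centred within 500 kb of the strongest peak of each gene, by distance in kb. Blue bars are peaks named for the gene, grey bars other peaks and lines below 0 gene bodies (red for the 5 genes), and the windows hold 27, 18, 18, 30 and 100 peaks from top to bottom, grouped over gene bodies.

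The windows of 1 Mb, 4 separate ones since RTN3 and ATL3 share their peaks, held most covered bases in gene bodies, a trait not particular to them, as 87.6% of all peaks were annotated to introns. Protein-coding genes took up 65.1% of the CDKAL1 window and held 97.6% of its covered bases. For RTN3 the values were 67.5% and 100%, for ATL3 69.4% and 100%, for NBN 22.2% and 96.8%, and for KANSL1 74.4% and 98.3%. The windows differed in how many peaks carried the signal. Relative to the genome the peak density was 4.63 times as high around CDKAL1, 3.09 times around RTN3 and ATL3, 5.15 times around NBN and 17.2 times around KANSL1. Relative to the chromosome of each gene it was 7.42 times as high around CDKAL1, 2.47 times around RTN3 and ATL3, 2.76 times around NBN and 6.55 times around KANSL1, so that the order of the genes depends on the denominator.

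The same count around the strongest peak of each of 5004 genes had a median of 11 peaks and a maximum of 176. In that order KANSL1 was 51st, NBN 902nd, CDKAL1 1024th and RTN3 and ATL3 1634th. By covered bases, with a median of 3.90 kb and a maximum of 145 kb, RTN3 and ATL3 were 23rd, CDKAL1 49th, KANSL1 67th and NBN 269th. The windows thus stood higher by covered length than by number of peaks for 4 of the 5 genes, the exception being KANSL1. Since the selection took the highest scores, and width rose with score, these ranks are a description of the selected loci.

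Over 5 Mb on each side, cut into 100 bins of 100 kb, covered sequence was patchy. At least 10% of the bases were covered in 3 bins around CDKAL1, 1 around NBN, 4 around KANSL1 and 13 each around RTN3 and ATL3. The highest bin had 43.0% covered for CDKAL1, 24.1% for NBN, 63.2% for KANSL1, 47.4% for RTN3 and 61.3% for ATL3. On chromosome 11 the further bins lay more than 2 Mb from RTN3, all in the direction of its transcription. Around NBN, bins with less coverage, up to 9.59%, lay more than 3 Mb away on both sides. Nearer to the genes, most covered sequence at CDKAL1 thus lay over the gene and its neighbour E2F3. At NBN most lay over the gene itself, 28.2 of the 35.0 kb covered within 500 kb. RTN3 and ATL3 shared a block of 308 kb with further blocks more than 2 Mb away. KANSL1 lay in a wider region with further peaks on both sides.

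**Figure D3:**
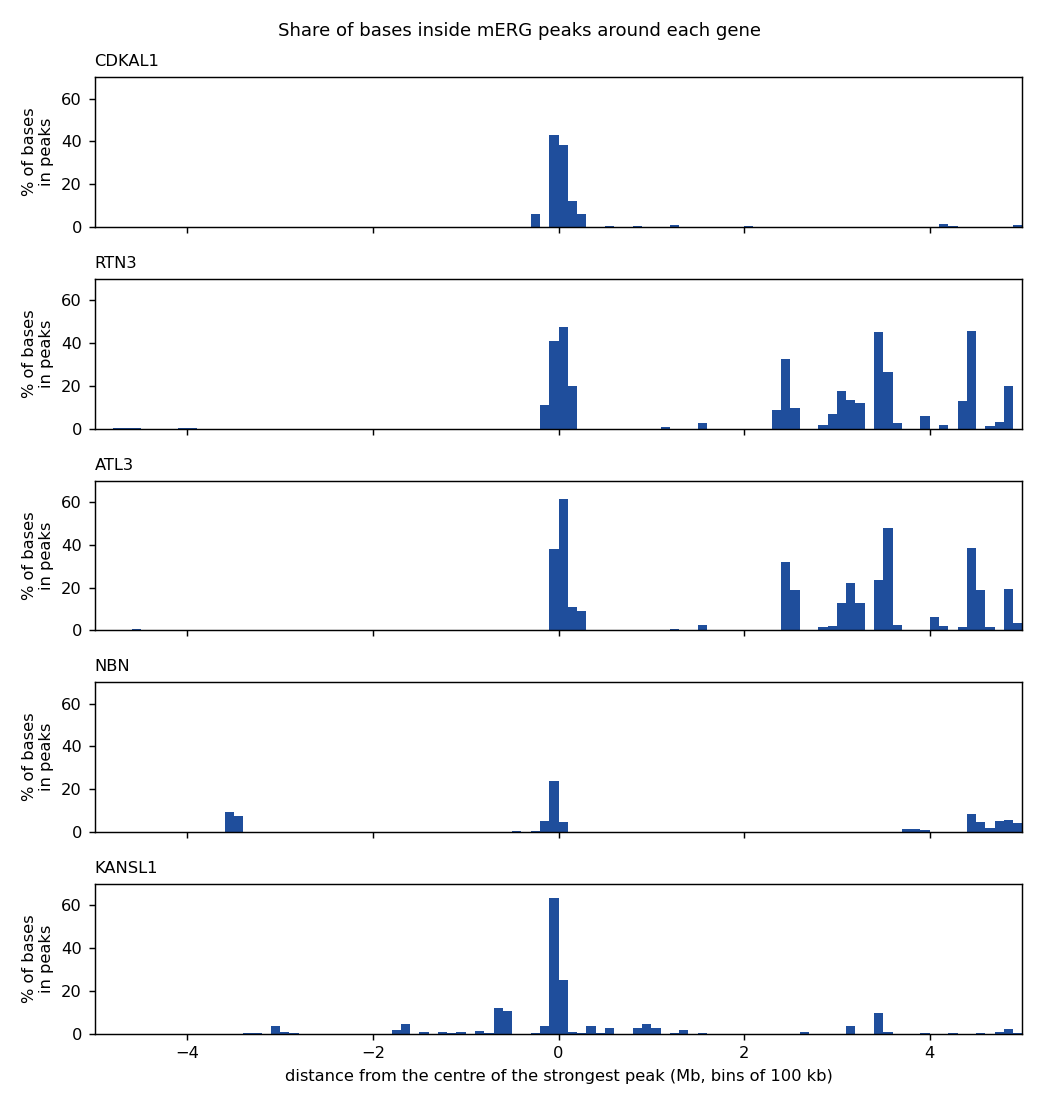
Percent of bases inside mERG peaks in bins of 100 kb, by distance in Mb from the centre of the strongest peak of each gene. The highest bin of each panel lies next to 0, with 43.0% (CDKAL1), 47.4% (RTN3), 61.3% (ATL3), 24.1% (NBN) and 63.2% (KANSL1). That of the ATL3 panel lies on the side of RTN3. The RTN3 and ATL3 panels, which show nearly the same interval, have further covered bins to the right.

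Measured over gene bodies, 4 of the 5 genes were among the most covered of the genome. Of 14887 protein-coding genes of 10 kb or more, 3899 had a peak centred in them, with a median of 1.12% of their bases covered, and 67 had at least 20% covered. RTN3 was first with 67.0%, ATL3 3rd with 61.6%, E2F3 4th with 60.3%, KANSL1 8th with 47.0% and NBN 21st with 35.8%. CDKAL1 was 410th. KDM2A, the first gene outside the selection by score, was 5th with 51.6%, so that coverage of the gene body did not separate the members from it.

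**Figure D4:**
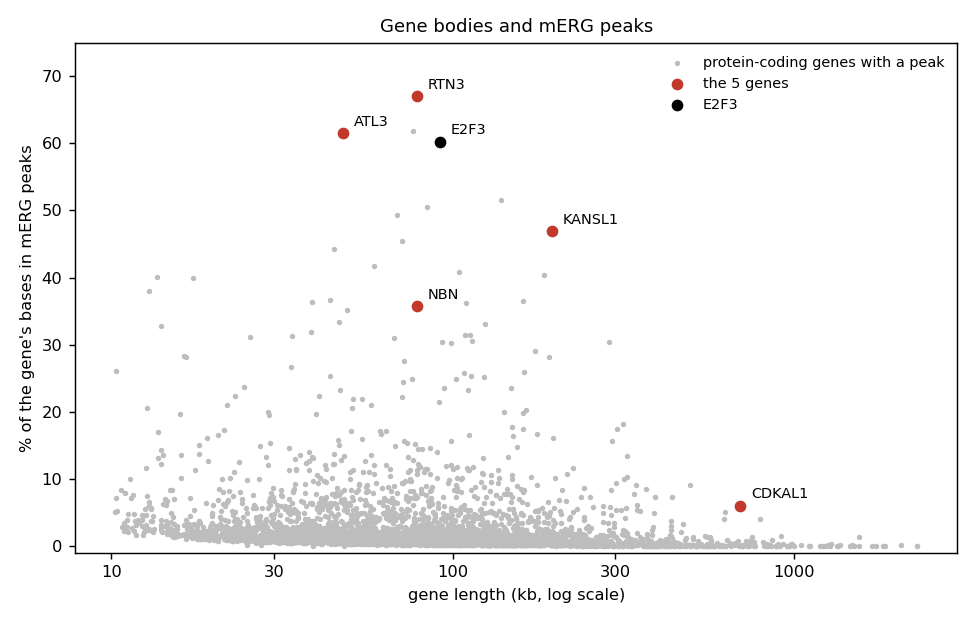
Percent of the bases of each protein-coding gene of 10 kb or more that lie inside mERG peaks, against gene length (kb, log scale), for genes with a covered base. The 5 genes are red and E2F3 is black, with RTN3 (67.0%), ATL3 (61.6%) and E2F3 (60.3%) at the top. CDKAL1 (6.01%) lies far below them, at rank 410, but above the median of 1.12% among genes with a peak centred in them.

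Genes with roles related to those of the 5 were looked up in 4 lists, and all of them score lower by the way the 5 were selected. For reference, 4088 of 20056 RefSeq protein-coding genes (20.4%) were named by at least 1 peak, and 27 of the 60 other genes in these lists were. Among genes that shape the endoplasmic reticulum, 13 of 25 others were named, with highest scores of 50.6 for RTN4 (8 peaks), 37.6 for RTN1, 46.6 for ATL2, 36.5 for REEP2, 46.5 for REEP3, 42.7 for REEP5, 34.9 for LNPK, 43.0 for RETREG1, 48.5 for SPAST, 45.5 for TMEM33, 55.04 for TEX264, 55.7 for RAB10 and 61.6 for RAB18. Of their own families, ATL1 and RTN2 named none. Among genes of the MRE11 complex and of break signalling, 7 of 13 others were named, with highest scores of 59.5 for MRE11, 55.4 for ATM (12 peaks), 54.0 for ATR, 53.1 for BRCA1, 37.8 for RNF8, 36.3 for RBBP8 and 35.9 for TP53BP1, and RAD50 named none.

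Of the other subunits of the NSL and MSL acetyltransferase complexes, 4 of 12 were named: PHF20 by 10 peaks with a highest score of 63.3, MSL2 by 9 with 71.2, KANSL3 by 2 with 35.9 and KANSL2 by 1 with 33.6. The catalytic subunit gene KAT8 named none. Of the other genes that modify transfer RNA next to the anticodon, 3 of 10 were named, TRMO with a highest score of 67.6, TRIT1 with 43.5 and CDK5RAP1, the closest relative of CDKAL1, with 40.3. The highest score in any of these lists outside the 5 genes was 71.2.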

How the data were processed

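The data are 1 ChIP-seq library with an antibody against mERG and 1 control library. Per the submitters' processing notes, Bowtie2, Picard and HOMER were used on hg19. The header of the deposited list names MACS, whose version and threshold are not given in the sources used here. Scores are the authors' deposited values, which the header does not define.

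Widths, gaps, stretches, runs and windows were computed from the list with functions tested on simulated data. Gene bodies were from GENCODE release 44 on GRCh37, and copies were sought with minimap2 2.31-r1302. Scripts ran under Python 3.11.15 with pandas 2.3.3, Matplotlib 3.10.9, SciPy 1.17.1 and NumPy 2.4.6.

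No test was run, since the members were chosen on the scores. The members and lists were chosen with earlier results of these data known. The text names the 5 genes, the next 5 by score, every gene with a peak 1 kb or wider or scoring 100 or more within 500 kb, and listed genes with a peak. RIPK2, DECR1, MAPT, LRRC37A, LRRC37A2, NSFP1, ELL2, PLAAT3 and the listed genes without a peak were named after their values were seen. The 1 kb join, the 250 kb run and the exclusion of copied peaks were added after seeing the data.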

Additional observations from a re-analysis of the deposited data

How the results depend on the processing

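Results were recomputed under alternatives written down before the values were seen, and under 3 more chosen after seeing the data. A value was taken as changed when it differed by more than 1.5 times or, for a share of bases, left the 95% binomial interval of the first value. That interval treats neighbouring bases as independent, so that small moves of a share count as changes, and no share moved by more than 1.5 times. Of the planned recomputations 51 changed a value and 33 did not, and of the added ones 5 did and 10 did not.

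The rank among 5011 genes depended on the measure. By score per kb of width CDKAL1 ranked 582, RTN3 4956, ATL3 4852, NBN 4686 and KANSL1 1938. By the median score of a gene's peaks the ranks were 57 for CDKAL1, 1 for RTN3, 17 for ATL3, 50 for NBN and 55 for KANSL1. Without peaks wider than 5 kb they were 23 for CDKAL1, 104 for ATL3, 24 for NBN and 1 for KANSL1, and RTN3 had no value, since all 4 of its peaks are wider. No gene kept its place under all 3 measures.

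Counted by position in the gene body, RTN3 had 7 peaks and NBN 18, because peaks named for neighbours lay inside them. The counts of the other 3 genes stayed within 1.5 times, with 12 for CDKAL1, of which 10 carry its name, and 87 for KANSL1. At a minimum score of 50 all 5 counts stayed within 1.5 times, with 12 for CDKAL1 and 44 for KANSL1, as did all 5 without peaks that have another copy.

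Relative peak density was higher within 250 kb and, except for KANSL1, lower within 1 Mb by more than that limit. Within 250 kb it was 7.55 for CDKAL1, 6.18 for RTN3 and for ATL3, 9.95 for NBN and 31.2 for KANSL1, and within 1 Mb it was 2.57 for CDKAL1 and for NBN and 1.55 for RTN3 and for ATL3. Over peaks scoring 50 or more it was 13.1 for CDKAL1 and for NBN, 10.99 for RTN3 and for ATL3, and 37.8 for KANSL1. With the chromosome as denominator it was 7.42 for CDKAL1, 2.76 for NBN and 6.55 for KANSL1, since chromosome 6 is poor in peaks and chromosomes 8 and 17 are rich. Without a gene's own peaks it was 1.72 for CDKAL1 and 6.87 for KANSL1.

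The share of covered bases in the strongest peak was 10.8% for CDKAL1 and 3.29% for KANSL1 within 250 kb, and 2.34% for KANSL1 within 1 Mb. Over peaks scoring 50 or more it was 11.7% for CDKAL1, 11.2% for RTN3, 5.96% for ATL3, 23.8% for NBN and 4.22% for KANSL1, as weak peaks no longer counted.

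The span of a run followed the distance allowed. With centres at most 50 kb apart it was 187 kb for RTN3 and for ATL3 and 168 kb for KANSL1. At 200 kb it was 691 kb for CDKAL1, 439 kb for NBN and 823 kb for KANSL1. At 250 kb, an added choice, it was 906 kb for CDKAL1, 439 kb for NBN and 823 kb for KANSL1. Over peaks scoring 50 or more it was 156 kb for KANSL1. The block of RTN3 and ATL3 did not grow with larger distances.

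GGAA occurred 11 times per kb in the central 1 kb of the strongest RTN3 peak, against 6.22 over the whole peak, and the cause was not tested. Joined at up to 1 kb, an added choice, stretches were 35.3 kb for CDKAL1 and 17.9 kb for NBN, of whose 8 separate peaks 6 then merged.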
